A study of Rattus norvegicus with 6 samples.

Results

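Metallothioneins are small cysteine-rich proteins that bind zinc, copper and cadmium, and the zinc transporters move zinc into and out of the cytosol. Zinc that enters a cell activates the transcription factor Mtf1 (metal regulatory transcription factor), which binds metal response elements in the promoters of the metallothionein genes Mt1 and Mt2A and of the zinc exporter Slc30a1. In liver, metallothionein is also induced by glucocorticoids and by interleukin 6, so it serves as a readout of both metal load and stress. The genes described here are Mt1 and Mt2A, Mtf1, the exporters Slc30a1 and Slc30a10, and the importers Slc39a4, Slc39a8 and Slc39a14. They are listed rat genes, and every probe whose accession maps to one of them was taken: all 8 genes had a probe, 16 probes in all, of 61573 probes and 15284 named genes on the array.

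Liver RNA was taken from 6 male Sprague-Dawley rats, purchased at 5 weeks of age and kept on a basal diet. The control group received corn oil (n = 3), and the other group received 1000 mg/kg/day (n = 3) of the flame retardant 2,2-bis(bromomethyl)-1,3-propanediol, called BBMP here, which carries bromine. No genetic change or other agent is named in the labels. The duration is given as 28 days in the series design and as 9 weeks in the treatment protocol, and the files do not settle which holds. Each animal was measured on 1 Agilent array in 1 colour, and it is the number of arrays that sets the precision. The corn oil arrays shared 1 slide and scan and the BBMP arrays shared another, so effects of the slide or the scan and of BBMP cannot be told apart. On each array 60.1% to 64.4% of the probes were well above background. The labels do not describe how the animals were assigned or pooled, and each array carries the label of a separate replicate.

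The promoters of the metallothionein genes carry many copies of the sequence that Mtf1 recognises, which is why they are shown with that of the exporter Slc30a1. The core searched was TGCACNC or TGCGCNC, on both strands, in the 250 bases before the annotated start of each gene (RefSeq, build GRCr8). The table held a promoter for 5 of the 8 genes, without Slc30a10, Slc39a4 and Slc39a14. Capitals mark the matches, and each sequence reads 5′ to 3′ on the strand of its gene. The Mt1 window is chr19:10832976-10833225 and the Mt2A window chr19:10838709-10838958, both on the minus strand, and the Slc30a1 window is chr13:106021769-106022018 on the plus strand. In the RefSeq gene table of that assembly Mt1, Mt2A, Mt3 and Mt4 follow each other with no other gene between them.
Mt1: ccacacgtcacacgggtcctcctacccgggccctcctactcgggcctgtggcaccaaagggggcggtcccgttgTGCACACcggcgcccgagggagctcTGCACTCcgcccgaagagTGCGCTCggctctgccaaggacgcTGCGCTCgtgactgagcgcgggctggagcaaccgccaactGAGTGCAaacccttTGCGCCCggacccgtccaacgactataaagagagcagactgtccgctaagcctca
Mt2A: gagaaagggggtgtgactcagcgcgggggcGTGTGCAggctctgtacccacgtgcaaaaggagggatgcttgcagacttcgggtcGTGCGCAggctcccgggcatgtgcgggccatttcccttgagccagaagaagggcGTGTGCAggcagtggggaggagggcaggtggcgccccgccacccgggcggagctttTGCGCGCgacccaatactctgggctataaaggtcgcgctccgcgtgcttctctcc
Slc30a1: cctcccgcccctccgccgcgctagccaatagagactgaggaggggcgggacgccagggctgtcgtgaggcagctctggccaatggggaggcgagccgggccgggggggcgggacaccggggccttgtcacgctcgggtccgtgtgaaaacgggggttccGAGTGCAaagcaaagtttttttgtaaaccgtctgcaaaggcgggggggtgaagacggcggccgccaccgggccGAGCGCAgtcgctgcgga

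Mt1 had 6 matches, 5 on its own strand, and the match nearest the start ran from base -55 to base -49, counted from the start. Mt2A had 4 matches, 3 of them on the other strand, and its nearest match also ran from -55 to -49. Slc30a1 had 2 matches, both on the other strand, at -91 to -85 and at -18 to -12. The window of Mtf1 itself held 2 matches and that of Slc39a8 none. Of 33469 promoter windows of the same length, 20.6% held at least 1 match, 4.90% at least 2, 0.266% at least 4 and 0.0747% at least 5. Both metallothionein windows also held the TATA box letters TATAAA on their own strand, which 8.06% of windows do. The windows were rich in G and C, at 66.4% for Mt1, 66.0% for Mt2A and 69.2% for Slc30a1, against a median of 51.2% over all windows. A match describes the letters and was not tested as a binding site.

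**Figure D1:**
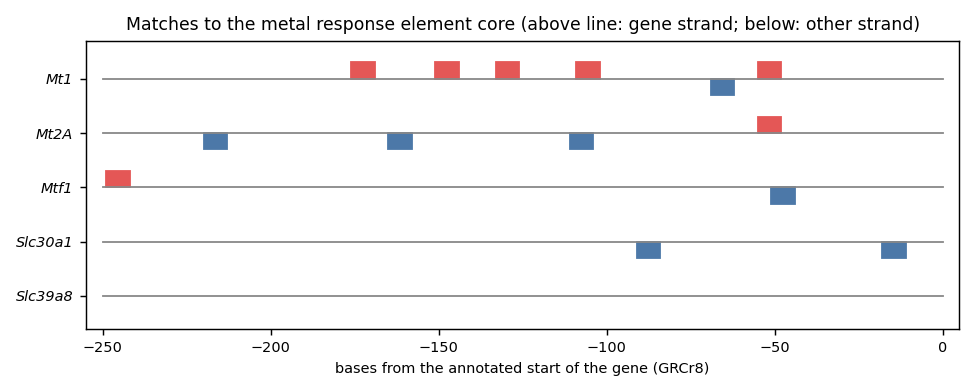
Positions of the metal response element core in the 250 bases before each gene, with distance from the annotated start in bases on the x axis; red blocks above the line are on the strand of the gene and blue blocks below on the other strand. Mt1 has 6 blocks and Mt2A 4, Mtf1 and Slc30a1 have 2 each, and Slc39a8 has none.

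Signals are given as log2 of the processed intensity over the 75th percentile of its own array, so 0 is the level of that percentile and 1 unit is a doubling. Signals of different probes are not compared, because probes differ in how they bind. All 16 probes were well above background on all 6 arrays, and none was saturated. Each gene is represented by its brightest probe. The groups were compared with limma's moderated test over 28112 features, of which 2 passed an adjusted p of 0.05 (Benjamini-Hochberg), 0.00711% of those tested. None of the 8 genes passed: adjusted p ran from 0.423 for Slc39a4 to 0.995 for Slc30a10. Of the 8 genes, 2 had an unadjusted p under 0.05, Slc39a4 lower and Mtf1 higher after BBMP; of all features 10.8% met that mark, 4.7% higher and 6.09% lower. The groups did not overlap for 3 of the 8, these 2 and Slc30a1, where this held for 17.8% of all features. The difference was positive for 3 genes and negative for 5, with a median of -0.0045, beside -0.01 over all features. The sign of Slc30a10 turned with quantile and with median scaling, and that of Slc39a14 with median scaling. In a piece of liver, fewer cells of a type and less RNA per cell cannot be told apart.

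**Figure D2:**
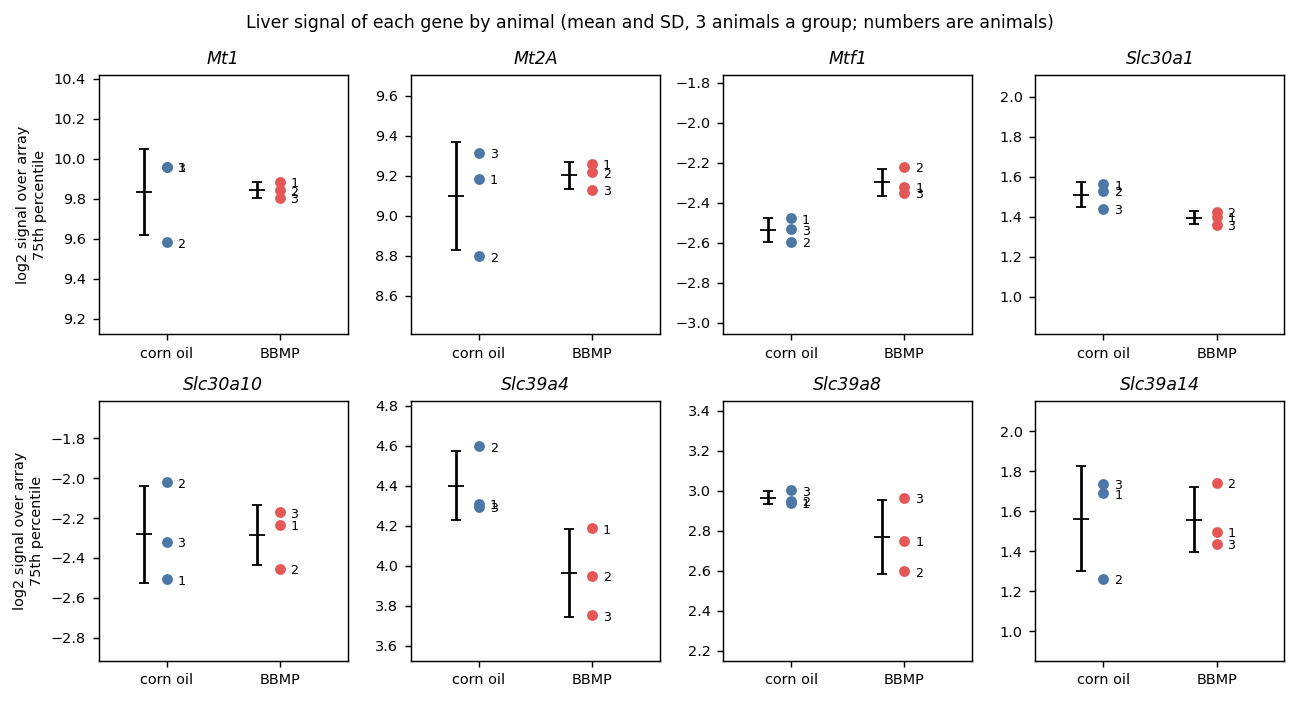
Log2 signal over the 75th percentile of the array (y axis, each panel spanning the same width) for the probe that stands for each gene, by group; points are animals with their replicate numbers, and bars are the mean and SD of 3 animals. The groups part for Mtf1, Slc30a1 and Slc39a4 and overlap for the other 5 genes, and the Mt1 and Mt2A points of corn oil 2 lie below all others.

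The metallothioneins, which store and buffer zinc in hepatocytes, differed between the groups by less than the spread among the controls. Mt1 had log2 signals of 9.96, 9.58 and 9.96 in corn oil livers 1 to 3 and of 9.88, 9.84 and 9.81 in BBMP livers 1 to 3. Corn oil 2 was the lowest of all 6 livers and the treated livers lay between the extremes of the controls. The difference was 0.01 ± 0.13 (SE; 95% interval -0.31 to 0.32; limma adjusted p = 0.984), an interval that runs from 0.809 to 1.25 times the corn oil level. The other Mt1 probe, A_43_P13297, gave 9.82, 9.35 and 9.87 in corn oil and 9.76, 9.72 and 9.66 in BBMP livers, with a difference of 0.03 ± 0.16 (SE). Both probes place corn oil 2 lowest.

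Mt2A had signals of 9.19, 8.80 and 9.32 in corn oil and 9.26, 9.22 and 9.13 in BBMP livers. As for Mt1, corn oil 2 was lowest and the treated livers sat close together within the range of the controls; here corn oil 3 was highest. The difference was 0.10 ± 0.15 (SE; 95% interval -0.26 to 0.47; limma adjusted p = 0.824), from 0.834 to 1.38 times the corn oil level. The other Mt2A probes differed by 0.18 ± 0.21 and 0.20 ± 0.22 (SE). On these probes, A_64_P158939 and A_42_P567267, corn oil 2 stood at 8.24 and 8.10, below corn oil 1 at 8.83 and 8.72 and corn oil 3 at 9.07 and 8.96. The Mt1 and Mt2A transcripts are related in sequence, and whether their probes bind each other's transcripts was not tested.

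The metallothionein signals varied more among the controls than among the treated livers. The SD of Mt1 was 0.22 in corn oil and 0.04 in BBMP livers, and that of Mt2A 0.27 and 0.07, while the median SD over all features was 0.17 and 0.16. With 3 animals a group no test of this spread was made. Corn oil 2 lay below the mean of the other corn oil livers by 0.38 for Mt1 and 0.45 for Mt2A. Over all features its median deviation was -0.01, with 13.3% of them lower by more than 0.30, and over 282 features with a mean log2 signal of 8 or more it was 0.04, with 6.38% lower by that much. The spots of the brightest Mt1 probe reached 40.7% to 63.3% of the scanner's saturation value across the arrays, and whether signals this bright are compressed was not tested. Without corn oil 2 the sign turned: the difference was -0.12 for Mt1 (limma adjusted p = 0.855) and -0.05 for Mt2A (adjusted p = 0.960).

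**Figure D3:**
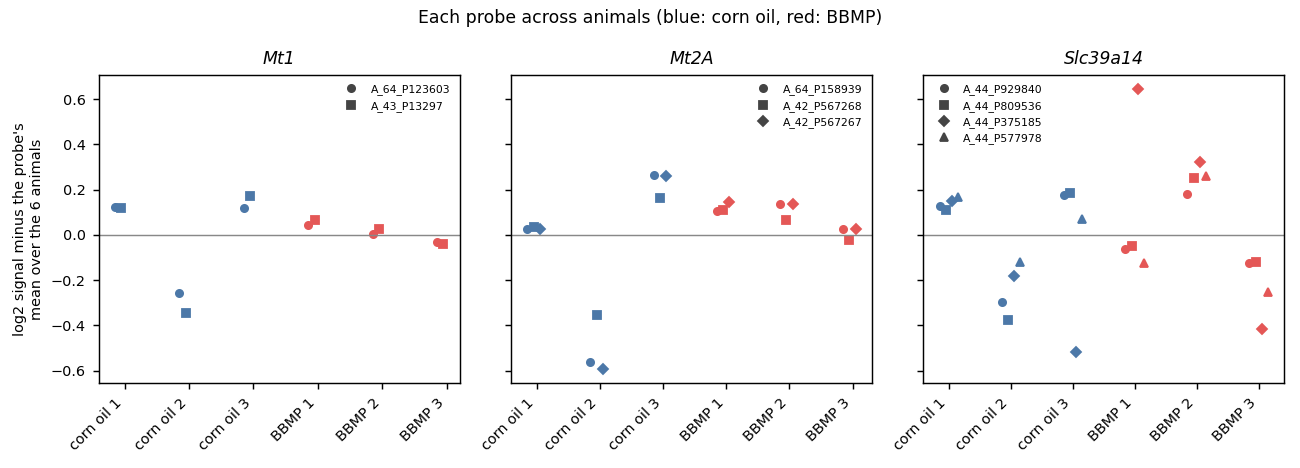
Log2 signal of each probe minus its own mean over the 6 animals (y axis), by animal (x axis), for Mt1 (2 probes), Mt2A (3 probes) and Slc39a14 (4 probes); each marker shape is a probe, corn oil in blue and BBMP in red. All Mt1 and Mt2A probes are lowest in corn oil 2, and the Slc39a14 probe A_44_P375185 departs from the other Slc39a14 probes in corn oil 3 and BBMP 1.

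Mtf1, the zinc sensor, had signals of -2.48, -2.60 and -2.53 in corn oil and -2.32, -2.22 and -2.35 in BBMP livers on its only probe. All treated livers were above all controls, by a margin wider than the SD within either group, 0.06 in corn oil and 0.07 in BBMP livers. The difference was 0.24 ± 0.09 (SE; 95% interval 0.01 to 0.46), 1.18 times the corn oil level, with an unadjusted p of 0.0404 and a limma adjusted p of 0.451, so it did not pass over all features. Leaving out 1 animal kept the difference between 0.20 and 0.27, and 1 of these 6 fits had an unadjusted p under 0.05. The unadjusted p was 0.0901 with normexp, 0.0725 without a filter, 0.0962 with trended robust moderation and 0.0772 with the replicate block. Its transcriptional targets in the list, Mt1, Mt2A and Slc30a1, had differences of 0.01, 0.10 and -0.12.

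Among the exporters, Slc30a1, which carries zinc out across the plasma membrane, had signals of 1.56, 1.53 and 1.44 in corn oil and 1.40, 1.43 and 1.36 in BBMP livers. The groups did not overlap, though the lowest control and the highest treated liver nearly met. The difference was -0.12 ± 0.09 (SE; 95% interval -0.33 to 0.10; limma adjusted p = 0.661). With normexp background correction the difference was -0.29 (unadjusted p = 0.00857, limma adjusted p = 0.328). The spread of Slc30a1 over the 6 animals, an SD of 0.08, was lower than that of all but 6.29% of the features tested.

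Slc30a10, known for manganese export, had signals of -2.51, -2.02 and -2.32 in corn oil and -2.23, -2.46 and -2.17 in BBMP livers. The groups overlapped fully, and the difference was -0.0038 ± 0.16 (SE; 95% interval -0.38 to 0.37; limma adjusted p = 0.995). Corn oil 2 was the highest of the 6 livers here, the opposite of its place for Mt1.

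Of the importers, Slc39a4, the zinc importer best known from the small intestine and mutated in the human zinc deficiency acrodermatitis enteropathica, had the largest difference among the 8 genes. Its signals were 4.31, 4.60 and 4.30 in corn oil and 4.19, 3.95 and 3.75 in BBMP livers. All treated livers were below all controls, with BBMP 1 nearest to them. The difference was -0.44 ± 0.15 (SE; 95% interval -0.80 to -0.07), which puts corn oil livers at 1.35 times the BBMP level, with an unadjusted p of 0.0256 and a limma adjusted p of 0.423, so it did not pass over all features. Leaving out 1 animal moved the difference between -0.55 and -0.33, and 3 of these 6 fits had an unadjusted p under 0.05. The gene had 1 probe. Of the intestinal markers, Vil1 lay below the detection mark on every array, and Fabp2 was detected. The Fabp2 level ran from 1.04 to 2.37 times the 75th percentile in corn oil and from 0.966 to 1.47 in BBMP livers.

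Slc39a8, an importer of zinc, manganese and cadmium, had signals of 2.94, 2.95 and 3.00 in corn oil and 2.75, 2.60 and 2.96 in BBMP livers on its brightest probe. Of the treated livers, BBMP 1 and BBMP 2 were below all controls and BBMP 3 lay among them. The difference was -0.19 ± 0.12 (SE; 95% interval -0.48 to 0.09; limma adjusted p = 0.582). The difference was -0.11 without BBMP 2, -0.29 without BBMP 3 (unadjusted p = 0.0453, limma adjusted p = 0.502) and -0.09 with normexp. The other probes of the gene differed by -0.02 each (SE 0.09 and 0.15).

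Slc39a14, an importer of zinc, iron and manganese that interleukin 6 induces in hepatocytes, had signals of 1.69, 1.26 and 1.74 in corn oil and 1.50, 1.74 and 1.44 in BBMP livers. Corn oil 2 was again the lowest liver and the groups overlapped, with a difference of -0.0051 ± 0.16 (SE; 95% interval -0.40 to 0.39; limma adjusted p = 0.994). Probes A_44_P809536 and A_44_P577978 differed by 0.06 and -0.08. Probe A_44_P375185 stood apart from these: it gave 1.00, 0.66 and 0.33 in corn oil and 1.49, 1.17 and 0.43 in BBMP livers, a difference of 0.37 ± 0.30 (SE; limma adjusted p = 0.690 with each probe as its own row). On that probe corn oil 3 was the lowest liver, whereas on A_44_P929840 and A_44_P809536 corn oil 2 was. The position of each probe on the transcript is not given in the sources used here.

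**Figure D4:**
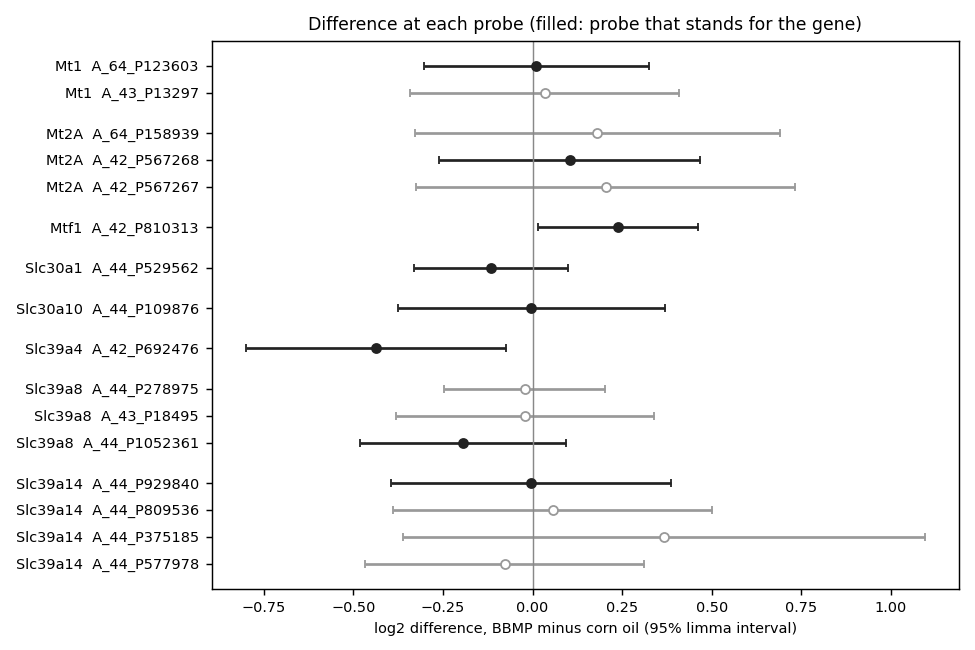
Log2 difference between BBMP and corn oil livers (x axis) with its 95% interval from limma, each of the 16 probes as its own row; filled points are the probes that stand for their genes. The intervals of Mtf1 and Slc39a4 leave out 0, and those of the other 14 probes include it.

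The likeness of 2 genes was measured as the root mean square, over the 6 animals, of the difference between their deviations from their own means. Mt2A was the 63rd closest to Mt1 of 11110 named genes, at 0.07, and Slc39a14 was the 435th, at 0.10, where the median gene was at 0.20. Mtf1 and Slc30a1 were both at 0.15 and Slc39a4 at 0.33. This measure is not scaled by spread, so a gene that varies little can lie close to Mt1 without sharing its profile. The SD over the 6 animals was 0.14 for Mt1, 0.14 for Mtf1 and 0.08 for Slc30a1. The 5 genes closest to Mt1 were Ptgr3, Adck5, the respiratory complex I subunit Ndufs3, the phospholipase family member Pla2g12b and Dnajc11, at 0.03 to 0.04, and all had their lowest value in corn oil 2. Slc39a4 had the largest SD over the 6 animals among the 8 genes, 0.30. The 5 genes closest to it were the kinase Wnk4, the sialyltransferase St3gal4, Natd1, the activin receptor Acvr1 and the matrix metalloproteinase Mmp17, at 0.04 to 0.07, with differences from -0.45 to -0.37 and limma adjusted p from 0.397 to 0.513. These orders rest on 6 animals and many genes, and are a description of the profiles only.

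In the rest of the zinc transporter and metallothionein families no tested gene had a called change, and Mt3 and Mt4 were not tested. Of 21 listed genes 18 had a probe and 14 were tested: 7 were higher and 7 lower, with a median difference of 0.02, and 0 passed limma's adjusted p. Of these 14 genes 1, Slc30a5, had an unadjusted limma p under 0.05, where 10.8% of all features did. Without BBMP 3 or with normexp 0 of them did. Slc30a5 encodes a transporter that loads zinc into the secretory pathway. Its signals were 1.79, 1.76 and 1.84 in corn oil and 2.03, 2.07 and 2.12 in BBMP livers. The groups did not overlap for 2 of the 14 genes, Slc30a5 and Slc39a12, where this held for 17.8% of all features. The Slc30a5 difference was 0.27 ± 0.09 (SE; limma adjusted p = 0.408). The other Slc30a5 probes differed by 0.69 ± 0.27 and 0.14 ± 0.12 (SE), in the same direction. The next smallest p belonged to Slc39a12 (0.33 ± 0.16), Slc39a5 (0.46 ± 0.34) and Slc30a4 (-0.14 ± 0.12). Slc39a12 was dim, at -3.40, -3.46 and -3.93 in corn oil and -3.28, -3.23 and -3.28 in BBMP livers. The Slc39a5 value rests on 1 probe. Its other probes were well above background on 0 arrays and on 2 BBMP arrays. Mt3, the brain metallothionein, Slc30a8, the zinc transporter of insulin granules, and Slc39a2 were not well above background on any array, and Mt4 was on 1 array of each group. Of the promoters of the 21 listed genes, 47.6% held the metal response element core, where 20.6% of all windows did. Their median G and C content was 62.8%, against 51.2% over all windows. The core is itself mostly G and C, and the share at a like content was not tested.

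**Figure D5:**
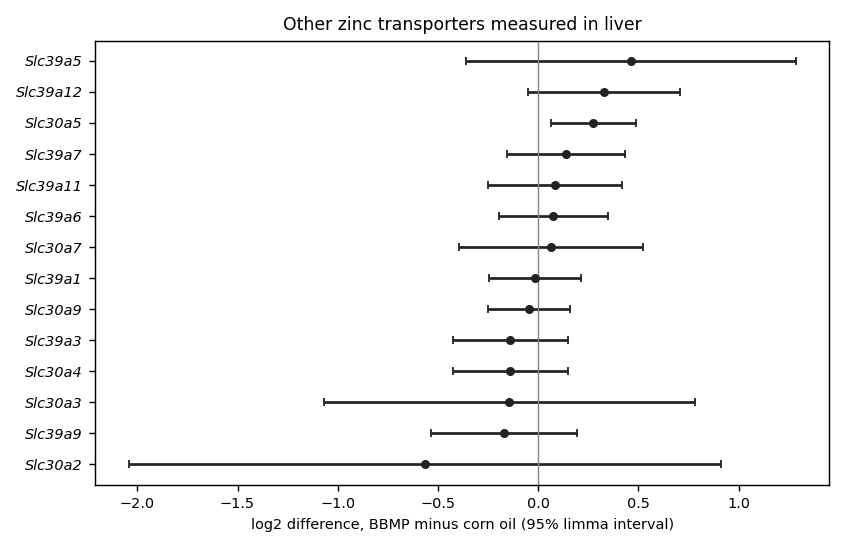
Log2 difference between BBMP and corn oil livers (x axis) with its 95% limma interval for the 14 other zinc transporters tested, sorted by difference. Differences run from -0.57 for Slc30a2 to 0.46 for Slc39a5, and the interval of Slc30a5 alone leaves out 0.

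Metallothionein also binds copper, and 10 of 10 listed copper handling genes were tested. Of these, 6 were higher and 4 lower, with a median difference of 0.03, and 0 passed limma's adjusted p. Slc31a1, the copper importer, was at 0.52, 0.85 and 0.56 in corn oil and 0.88, 1.00 and 1.00 in BBMP livers, without overlap, and differed by 0.32 ± 0.12 (SE; unadjusted p = 0.0363, limma adjusted p = 0.441). Atp7b, the pump that sends copper into bile, differed by -0.48 ± 0.23, the chaperone Atox1 by 0.24 ± 0.12 and the plasma ferroxidase Cp by -0.20 ± 0.12, none past an unadjusted p of 0.05.

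Targets of the known inducers of metallothionein were counted on the same arrays. Of 9 glucocorticoid targets 6 were higher and 3 lower after BBMP, with a median difference of 0.35, and 0 passed limma's adjusted p. Their mean deviation was 0.28, 0.93 and -0.59 in BBMP livers 1 to 3. In corn oil livers 1 to 3 it was -0.42, -0.34 and 0.14, so the groups overlapped and BBMP 2 stood highest. This mean is not scaled by gene, so genes that vary widely weigh more in it. Zbtb16 and Sds had SDs over the 6 animals of 1.61 and 1.07, where the median feature was at 0.20. Zbtb16 was at -3.66, -2.76 and 0.06 in corn oil livers 1 to 3. Mt1 lay between 9.81 and 9.88 in the same treated livers, and a link to the glucocorticoid targets was not tested. The kinase Sgk1 differed by -0.58 ± 0.22 (unadjusted p = 0.0381), the serine dehydratase Sds by 1.21 ± 0.61, Zbtb16 by 1.75 ± 0.94 and Pck1, the gluconeogenic enzyme, by -0.30 ± 0.22 (SE). Of 11 interleukin 6 targets 8 were lower and 3 higher, with a median of -0.12, 3 of them lower at an unadjusted p under 0.05, where 6.09% of all features were, and 0 past limma's adjusted p. Socs3, the feedback inhibitor of that pathway, differed by -0.58 ± 0.10, and the fibrinogen chains Fga and Fgb by -0.35 ± 0.11 and -0.25 ± 0.10 (SE). The lipopolysaccharide-binding protein Lbp differed by -0.20 ± 0.09 (SE). Slc39a14, the interleukin 6 responsive importer, differed by -0.0051 on the same arrays, and a link to these targets was not tested.

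The labelled tissue was checked on markers. All 7 hepatocyte markers were well above background on all arrays, with a summed level from 6250 to 6730 times the 75th percentile in corn oil and from 5870 to 6380 in BBMP livers, 6 of 7 of them lower after BBMP. Such a sum adds the probes of different genes, so the brightest probe weighs most in it, and sums of different cell types are not compared. All 6 macrophage markers were higher after BBMP, with sums from 49.0 to 80.6 in corn oil and 64.8 to 81.2 in BBMP livers. Of 4 stellate cell markers 3 were lower, with sums from 7.45 to 9.35 and from 5.91 to 6.93. An unadjusted limma p under 0.05 was met by 2 of the 4, both lower, a mark that 6.09% of all features met. No tested marker of the other cell types met it. The groups parted without overlap for 3 of the 4 stellate markers, against 17.8% of all features. Of the tested bile duct markers 2 of 4 were higher, of the endothelial 2 of 3, and of the neutrophil, the T and B cell and the red cell markers 0 of 2 each. Of the pancreatic markers, Prss1 and Cela1 lay below the detection mark on every array. Cpa1 lay above it on some arrays and was not tested. No marker passed limma's adjusted p of 0.05, and the part of these cells in the differences above was not tested.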

How the data were processed

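Per the file headers, the authors' scanner files (Agilent rat design 035170, annotated on rn4, Feature Extraction 10.7.1.1) hold linear intensity with the background subtracted, without normalisation between arrays. Version 10.7 of Agilent Feature Extraction is named in the submitters' processing notes. The authors' value table, also deposited as intensity, is each array's processed signal divided by 1 constant, with column medians from 0.0965 to 0.0998. It is not centred, and the purpose of the scaling is not given in the sources used here. Per the labels' protocols the RNA was labelled with Cy3.

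Control spots (1319 of 62976), 84 spike-in probes and outlier spots (at most 21 per array) were left out. Accessions without their version were matched to the RefSeq gene table of GRCr8, which named 44.6% of the probes. Log2 processed signals, less the log2 of the 75th percentile of the array, were fitted with limma 3.58.1 in R 4.3.3 (lmFit, eBayes, two-sided, no covariate). Features detected well above background on every array of at least 1 group entered, and the probe with the highest mean stood for its gene. Intervals are 95% intervals of that fit. Python 3.11.15 with pandas 2.3.3 and numpy 2.4.6 made the tables, and the fit was tested on simulated data. Each p-value sets the group difference against the spread between animals within a group, moderated over all features. The slide and the scan differed only between the groups, so this spread does not hold their effects.

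The text names all 8 genes, up to 4 tested genes with the smallest p of each other zinc, copper, glucocorticoid and interleukin 6 list, and the 5 genes closest in profile to Mt1 and to the gene of largest SD. The genes and lists were chosen with earlier results of these data known, and the comparison of corn oil 2 over bright features was chosen after its values were seen. The alternatives changed the background correction (normexp, offset 50, on the median spot signal), the scaling (quantile or median), the filter (none, or detection on all 6 arrays), the use of several probes (each alone, or their mean), the moderation (trended and robust), the source (the value table), the pairing (replicate number as a block) and the animals (each left out in turn).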

Additional observations from a re-analysis of the deposited data

How the results depend on the processing

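No alternative brought any of the 8 genes past limma's adjusted p of 0.05: over 128 fits of single genes it lay between 0.315 and 0.996. Mtf1, Slc30a1, Slc39a4 and Slc39a8 kept their sign under each alternative run; Slc30a1 moved to -0.29 with normexp and Slc39a8 to -0.09 with normexp and -0.08 with the mean of its probes. The filter, the moderation and the pairing left the differences of these genes as they were, as did the probe settings for a gene with 1 probe. No sign could turn in those fits. Of 16 alternatives each, an unadjusted p under 0.05 was met in 13 for Slc39a4, 7 for Mtf1, 1 for Slc30a1 (normexp) and 1 for Slc39a8 (without BBMP 3), and in 0 for each of the other 4 genes. Many of these fits share the same difference. Of the 6 fits without 1 animal, 3 met it for Slc39a4 and 1 for Mtf1. Signs turned for 4 genes whose differences were small beside their errors, in 14 fits, and the cause was not tested. Slc30a10 was at 0.017 with quantile and 0.012 with median scaling, and Slc39a14 at 0.13 with normexp, 0.011 with median scaling and 0.085 with the mean of its probes. Leaving out 1 animal gave -0.12 to 0.073 for Mt1, -0.047 to 0.21 for Mt2A, -0.12 to 0.13 for Slc30a10 and -0.16 to 0.082 for Slc39a14. Mt1 was at 0.17 with quantile normalisation. The number of features past the threshold, 2, was 0 with normexp, 1 without a filter, 0 with the filter on all 6 arrays and 0 with the replicate block, where 3246, 3304, 2832 and 3235 features had an unadjusted p under 0.05; it was 0 to 4 without 1 animal, with 0 without corn oil 3 and 4 without corn oil 2 or BBMP 3. The filter on all 6 arrays tested 26581 features, and no filter 45793. The number of other zinc genes at an unadjusted p under 0.05, 1, was 0 with normexp and 0 to 2 without 1 animal: 2 without corn oil 1 or corn oil 3 and 0 without BBMP 3. Nothing in the labels says that a replicate number pairs 2 animals: deviations of same-numbered animals correlated at 0.089, 0.016 and 0.072, and 4 of 6 animals correlated best with their own number.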
